A study of Mus musculus with 9 samples.

Results

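The TGF-beta and BMP pathway genes described here were followed in the transcriptome of young and pre-aged mouse hematopoietic stem cells (HSCs). They are 10 of the 56748 genes in the deposited count table, taken by name: the ligand *Tgfb1*, the receptors *Tgfbr1*, *Tgfbr2*, *Tgfbr3*, *Bmpr1a* and *Bmpr2*, and the intracellular carriers and inhibitors *Smad3*, *Smad4*, *Smad6* and *Smad7*. No measured value entered the choice rule, but the genes were chosen with earlier results of these data known. All 10 passed the filter on low counts in each comparison. HSCs were sorted from mouse bone marrow as Lin-Sca1+c-Kit+ cells that were CD48-CD150+ (SLAM HSCs). Young HSCs (yHSCs) came from mice aged 6 to 10 weeks, and pre-aged HSCs (paHSCs) from mice aged 14 to 16 months. The paHSCs were divided by surface P-selectin, the adhesion protein encoded by *Selp*, into Selp_low and Selp_high fractions. Per the study's methods, all mice were C57BL/6 females, so the 3 groups shared strain and sex and carried no stated transgene or treatment. Each group had 3 libraries (n = 3). How many mice or cells went into a library is not given in the sources used here, so p-values measure only the spread between these libraries.

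TGF-beta family ligands bind pairs of type II and type I receptor kinases, and the type I receptor phosphorylates receptor-regulated Smads that enter the nucleus together with Smad4. The TGF-beta branch signals mainly through Smad2 and Smad3, and the BMP branch through Smad1, Smad5 and Smad9. Smad6 and Smad7 are inhibitory Smads, themselves induced by the signal, that block the receptors. In bone marrow, TGF-beta is known as a signal that holds HSCs in quiescence, and megakaryocytes are among its known sources.

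For the receptor whose libraries did not overlap between either paHSC fraction and yHSCs, and the inhibitory Smad whose libraries did not overlap between Selp_low paHSCs and yHSCs, the bases around the transcription start are given so that their sequence can be set beside their levels. The sequences are those of RefSeq on build GRCm38.p6, on the gene's own strand, 250 bases before the start and 30 after it. The *Bmpr1a* window is chr14:34502517-34502796 and the *Smad6* window is chr9:64022030-64022309, both on the minus strand. Capitals mark GGCGCC, a GC-rich element known from BMP-responsive genes, in *Bmpr1a*, and GTCTAGAC, the palindrome to which Smad3 and Smad4 bind in vitro, in *Smad6*.
Bmpr1a: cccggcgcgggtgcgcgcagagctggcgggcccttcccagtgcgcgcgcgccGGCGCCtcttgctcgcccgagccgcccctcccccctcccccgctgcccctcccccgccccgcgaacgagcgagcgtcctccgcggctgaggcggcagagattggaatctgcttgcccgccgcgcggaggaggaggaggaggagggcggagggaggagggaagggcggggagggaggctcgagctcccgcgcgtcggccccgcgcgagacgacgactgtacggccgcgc
Smad6: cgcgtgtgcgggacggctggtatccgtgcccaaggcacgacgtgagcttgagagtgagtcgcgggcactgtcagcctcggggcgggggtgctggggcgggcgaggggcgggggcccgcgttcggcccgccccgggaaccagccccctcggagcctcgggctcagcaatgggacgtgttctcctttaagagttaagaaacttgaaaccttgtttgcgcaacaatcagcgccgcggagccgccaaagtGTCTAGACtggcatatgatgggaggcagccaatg

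GGCGCC began 198 bases upstream of the *Bmpr1a* start, and GTCTAGAC began 4 bases upstream of the *Smad6* start and ran across it. Both motifs read the same on either strand. Of 32851 mouse promoters of the same length, 10.9% held GGCGCC and 0.192% held GTCTAGAC. A RefSeq window was searched for 7 of the 10 genes. Windows on chromosome 18, where *Smad4* and *Smad7* lie, were left out of the search, and no window of full length was held for *Tgfbr3*. GGCGCC was also found in the windows of *Bmpr2* and of the first *Tgfbr1* start, and CAGACA, the Smad3 and Smad4 box, in the window of the second *Tgfbr1* start (CAGACA or its complement is in 19.6% of promoters). AGATAA and TGTGGT, searched on both strands, were in none of these windows and are in 10.7% and 15.6% of promoters. Such matches describe the letters only.

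The libraries held 24866975 to 35375310 counts on genes. In Selp_low replicate 2 and replicate 3, the 10 most abundant genes took 44.8% and 20.9% of the counts, against 3.90% to 12.5% in the other 7 libraries, and those 2 libraries had the lowest TMM scaling factors, 0.544 and 0.785. Levels are therefore given as CPM, the share of a library scaled to a fixed total, after TMM scaling, in which 3 counts are worth 0.0695 to 0.198 CPM. *Selp* itself followed the sort: it was at 651, 266 and 264 CPM in Selp_high paHSCs, 109, 29.3 and 93.3 CPM in Selp_low paHSCs and 20.5, 29.99 and 23.2 CPM in yHSCs. All 10 HSC markers (among them *Procr*, *Slamf1*, *Kit* and *Mecom*) were detected in all 9 libraries, with a summed level of 1036 to 2293 CPM in yHSCs, 819 to 1505 in Selp_low and 2172 to 3118 in Selp_high paHSCs. Markers of other cells were present too. The summed level of 10 neutrophil markers reached 213183 CPM in Selp_low replicate 3 and that of 10 B and plasma cell markers reached 456661 CPM in Selp_low replicate 2. The low TMM factors of these 2 libraries put their CPM above the share of raw counts. In Selp_low replicate 2, *Igkc* was at 188157 CPM with 2854522 of 27869540 counts. The 10 megakaryocyte and platelet markers summed to 126 to 196 CPM in yHSCs, 165 to 2168 in Selp_low and 1352 to 7607 in Selp_high paHSCs. In RNA from sorted pools, fewer cells that express a gene and less of its RNA per cell cannot be told apart.

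Per kilobase of gene length (RPKM), *Smad4*, the partner shared by both branches, and the ligand *Tgfb1* were the most abundant of the 10 genes in each group. *Smad4* stood at 29.4 ± 11.1 RPKM in yHSCs, 20.5 ± 2.58 in Selp_low and 28.2 ± 3.96 in Selp_high paHSCs (mean ± SD, n = 3). *Tgfb1* stood at 15.3 ± 11.7, 22.1 ± 14.9 and 27.7 ± 18.6 RPKM in the same order, so that these neighbours in the ranking lay within their spread of each other. Next in yHSCs came *Smad3* (7.75 ± 4.16 RPKM), *Tgfbr2* (7.70 ± 3.96) and *Smad7* (7.23 ± 5.41), which also did not differ beyond their spread. *Bmpr2* was lowest, between 0.108 and 0.676 RPKM over the 9 libraries, and *Bmpr1a* was close to it in yHSCs, at 0.352 ± 0.134 against 0.305 ± 0.102 RPKM. In both paHSC fractions *Bmpr1a* lay above *Bmpr2*, at 1.62 ± 0.996 against 0.196 ± 0.0719 RPKM in Selp_low and 1.66 ± 0.306 against 0.356 ± 0.291 RPKM in Selp_high paHSCs.

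**Figure D1:**
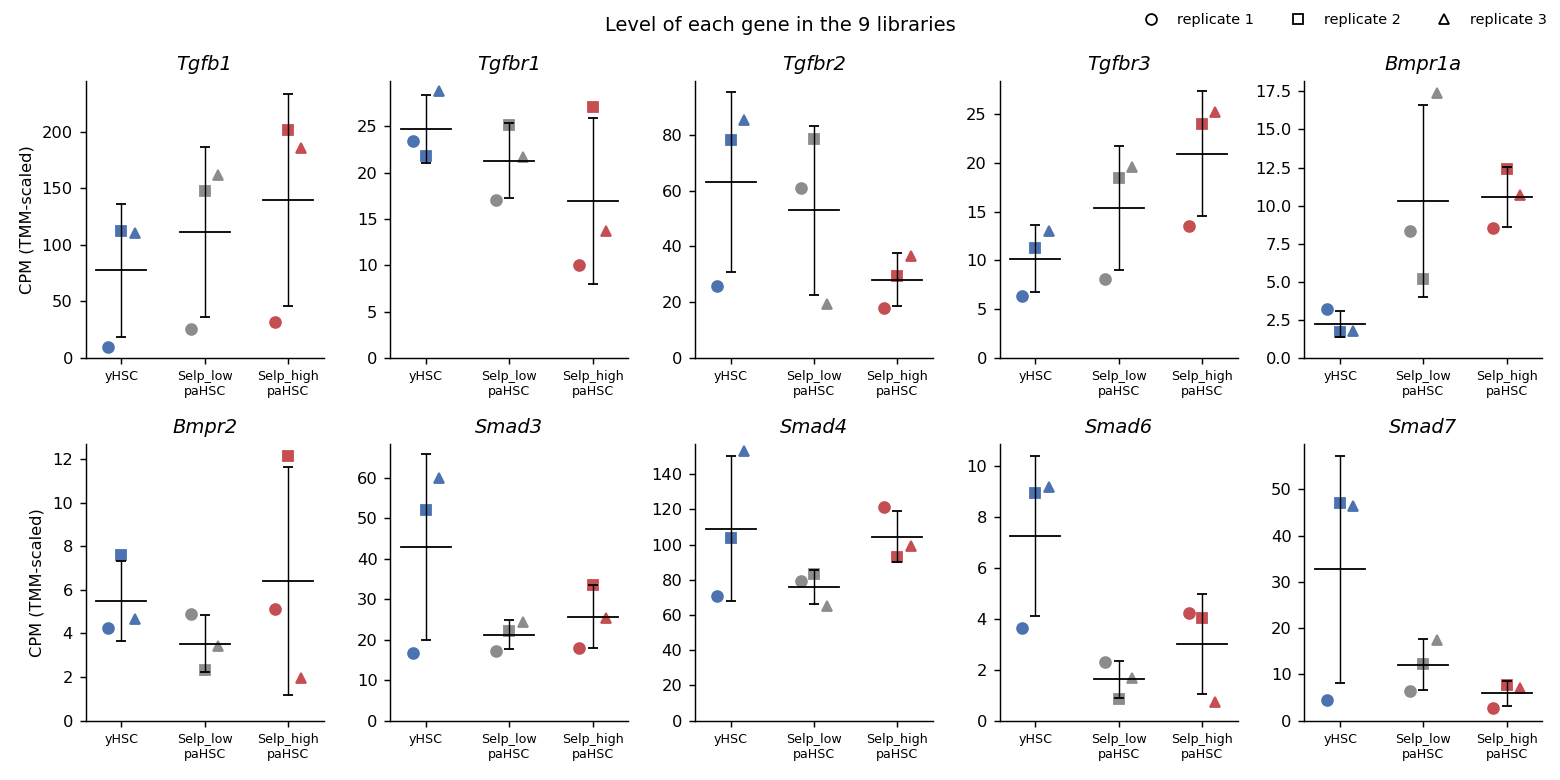
Level of the 10 genes in TMM-scaled CPM (y axis, linear from 0, a separate scale for each gene) in yHSC, Selp_low and Selp_high paHSC libraries. Points are libraries, with circles, squares and triangles for replicates 1, 2 and 3, and lines are the mean ± SD of 3 libraries. *Bmpr1a* is at 3.22 CPM or less in yHSCs and at 5.21 CPM or more in all 6 paHSC libraries, and *Tgfb1* is lowest in replicate 1 of every group.

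The ligand *Tgfb1* (TGF-beta 1, on chromosome 7 from 25386427 to 25404502, plus strand, build mm39) was split more by library than by group. It was at 9.49, 112 and 111 CPM in yHSCs, 25.3, 148 and 162 CPM in Selp_low and 31.8, 201.5 and 186 CPM in Selp_high paHSCs, in the order of replicates 1, 2 and 3. Replicate 1 was thus the low library of each group, and the groups overlapped. The mean of replicates 2 and 3 was 11.6-fold above replicate 1 in yHSCs, 6.09-fold in Selp_low and 6.07-fold in Selp_high paHSCs. With the cutoff set at the smallest log2 difference of *Tgfb1* itself, 5 of 16578 genes were as low in replicate 1 of all 3 groups. *Tgfb1* is among them by construction. The labels do not say that a replicate number marks a shared day or batch, and the part that handling of the libraries had in this split was not tested.

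Between the paHSC fractions the *Tgfb1* level was 1.25-fold higher in Selp_high paHSCs, a log2 difference of 0.32 with a 95% interval of -1.66 to 2.30, which did not pass the test (adjusted p = 0.901, edgeR). Libraries of the same number deviated together in these 2 fractions, and within each number *Tgfb1* was higher in the Selp_high library, 1.26-fold, 1.37-fold and 1.15-fold. With the replicate number as a block the adjusted p was 0.430. Against yHSCs the log2 difference was 0.84 (interval -1.32 to 3.01) for Selp_high and 0.60 (interval -1.65 to 2.85) for Selp_low paHSCs, the latter turning to -0.19 without scaling factors. DESeq2 with the replicate block called *Tgfb1* in Selp_high paHSCs over yHSCs (log2 1.06, adjusted p = 0.0268), although the numbers did not pair the libraries there, and edgeR with that block gave an adjusted p of 0.566. With the intervals of the unblocked fit, a difference of several-fold in either direction could not be seen for this ligand.

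**Figure D2:**
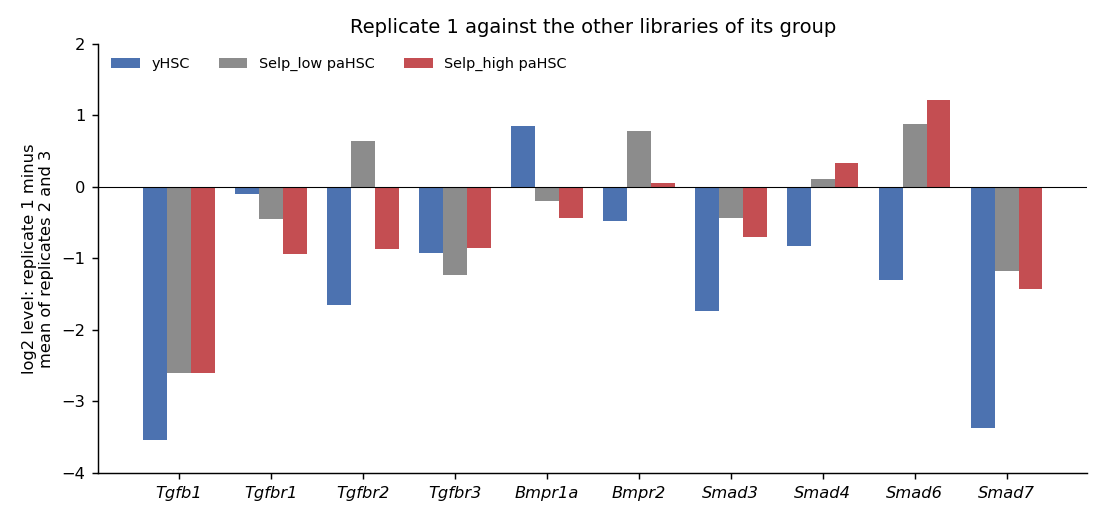
Log2 level in replicate 1 minus the mean log2 level in replicates 2 and 3 (y axis, CPM with a pseudocount of 0.1) for the 10 genes in each group, 1 bar per group. *Tgfb1* and *Smad7* are lower in replicate 1 by at least 1 in all 3 groups, and no gene is higher by 1 in all 3.

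*Smad7* shared the low replicate 1, by a log2 difference of -3.37, -1.18 and -1.42 in yHSCs, Selp_low and Selp_high paHSCs. Among 16578 genes, 289 were lower in replicate 1 by at least 1 on the log2 scale in all 3 groups and 80 were higher. Of the 10 genes 2 were lower and 0 higher.

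The type I receptor *Bmpr1a*, which carries BMP signals (chromosome 14, 34132691 to 34225298, minus strand, mm39), separated the paHSC libraries from the yHSC libraries. It was at 3.22, 1.71 and 1.78 CPM in yHSCs, 8.33, 5.21 and 17.4 CPM in Selp_low and 8.54, 12.4 and 10.7 CPM in Selp_high paHSCs. All 6 paHSC libraries lay above all 3 yHSC libraries, while the 2 fractions overlapped. The counts behind these values were 65 to 95 per yHSC library and 79 to 504 per paHSC library. The level was 4.58-fold that of yHSCs in Selp_high paHSCs (log2 2.197 ± 0.446 SE, interval 1.15 to 3.24) and 4.64-fold in Selp_low paHSCs (log2 2.21 ± 0.576 SE, interval 0.847 to 3.58).

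For *Bmpr1a* against yHSCs, edgeR gave an adjusted p of 0.165 in Selp_high and 0.332 in Selp_low paHSCs, neither a call, with an unadjusted p of 0.00146 and 0.00659. DESeq2, the tool of the study, called both, at adjusted p of 0.000717 and 0.0336. Leaving out any 1 library kept the DESeq2 call for Selp_high paHSCs, whereas the call for Selp_low paHSCs was lost without Selp_low replicate 3, yHSC replicate 2 or yHSC replicate 3. The yHSC libraries serve both comparisons, so the 2 results are not independent. Selp_high and Selp_low paHSCs differed by 0.03 on the log2 scale, with an interval of -1.13 to 1.19, and the sign turned when 1 of several libraries was left out.

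Markers of other cell types differed along with *Bmpr1a*, and their part in the result was not tested. Neutrophil markers summed to 13198 to 64968 CPM in yHSCs, 547 to 213183 in Selp_low and 1680 to 42621 in Selp_high paHSCs, and Selp_low replicate 3 was the highest library both for them and for *Bmpr1a*. The sum of the megakaryocyte and platelet markers was higher in 5 of the 6 paHSC libraries than in any yHSC library. *Pf4* made up 1144 of 1632 CPM in Selp_low replicate 2 and 1438 of 2168 CPM in Selp_low replicate 3. *Itga2b* and *Gp1ba* had the order of the sum. *Tubb1* did not, at 10.6 and 1.61 CPM in Selp_low replicates 2 and 3 and 14.4 CPM in yHSC replicate 3. The 10 T and NK cell markers summed to 63.4 to 92.7 CPM in yHSCs, 416 to 1097 in Selp_low and 136 to 154 in Selp_high paHSCs. The genes behind this sum were not the same in each library: *Nkg7*, which NK cells and also myeloid cells express, made up 619 of 633 CPM in Selp_low replicate 3, and the T cell gene *Cd3g* was at 83.8, 226 and 0.824 CPM in Selp_low, 0.929 to 5.45 CPM in Selp_high paHSCs and 0.102 to 1.69 CPM in yHSCs. An antisense noncoding gene, *Gm17110*, overlaps *Bmpr1a* and held at most 7 counts in a library.

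The other BMP receptor, the type II kinase *Bmpr2* (chromosome 1, 59802559 to 59918173, plus strand), did not follow *Bmpr1a*. Its levels were 4.24, 7.60 and 4.65 CPM in yHSCs, 4.89, 2.31 and 3.41 CPM in Selp_low and 5.11, 12.2 and 1.95 CPM in Selp_high paHSCs. The lowest and the highest of all 9 values both fell in Selp_high paHSCs, and all groups overlapped. The log2 difference of Selp_high paHSCs from yHSCs was 0.20 with an interval of -1.39 to 1.78, and without Selp_high replicate 2 it was -0.68.

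Among the TGF-beta receptors, the type II receptor *Tgfbr2* (chromosome 9, 115913361 to 116004428, minus strand), which binds the ligand and activates the type I receptor, was at 25.9, 78.0 and 85.3 CPM in yHSCs, 60.8, 78.5 and 19.4 CPM in Selp_low and 18.0, 29.5 and 36.7 CPM in Selp_high paHSCs. No Selp_high library reached 40 CPM, but yHSC replicate 1 and Selp_low replicate 3 were as low, so the groups overlapped. Selp_high paHSCs stood at 0.440-fold the yHSC level (log2 -1.19 ± 0.475 SE, unadjusted p = 0.0397, adjusted p = 0.619, edgeR). The log2 difference from Selp_low paHSCs was -0.93, with an interval of -2.196 to 0.35.

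*Tgfbr3*, betaglycan, a co-receptor that presents the ligand (chromosome 5, 107254436 to 107437495, minus strand), had the opposite order. It was at 6.30, 11.3 and 13.0 CPM in yHSCs, 8.07, 18.5 and 19.6 CPM in Selp_low and 13.6, 24.0 and 25.3 CPM in Selp_high paHSCs. All Selp_high libraries lay above all yHSC libraries, and Selp_low libraries overlapped both. The difference between Selp_high paHSCs and yHSCs was 2.03-fold (log2 1.02 ± 0.393 SE, interval 0.1003 to 1.94), at an unadjusted p of 0.0341 and an adjusted p of 0.589 (edgeR; DESeq2 adjusted p = 0.244). The type I receptor *Tgfbr1* (chromosome 4, 47353222 to 47414931, plus strand), the kinase that phosphorylates Smad2 and Smad3 was at 21.8 to 28.8 CPM in yHSCs, 17.0 to 25.1 in Selp_low and 10.04 to 27.0 in Selp_high paHSCs, and no comparison reached an unadjusted p of 0.05.

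**Figure D3:**
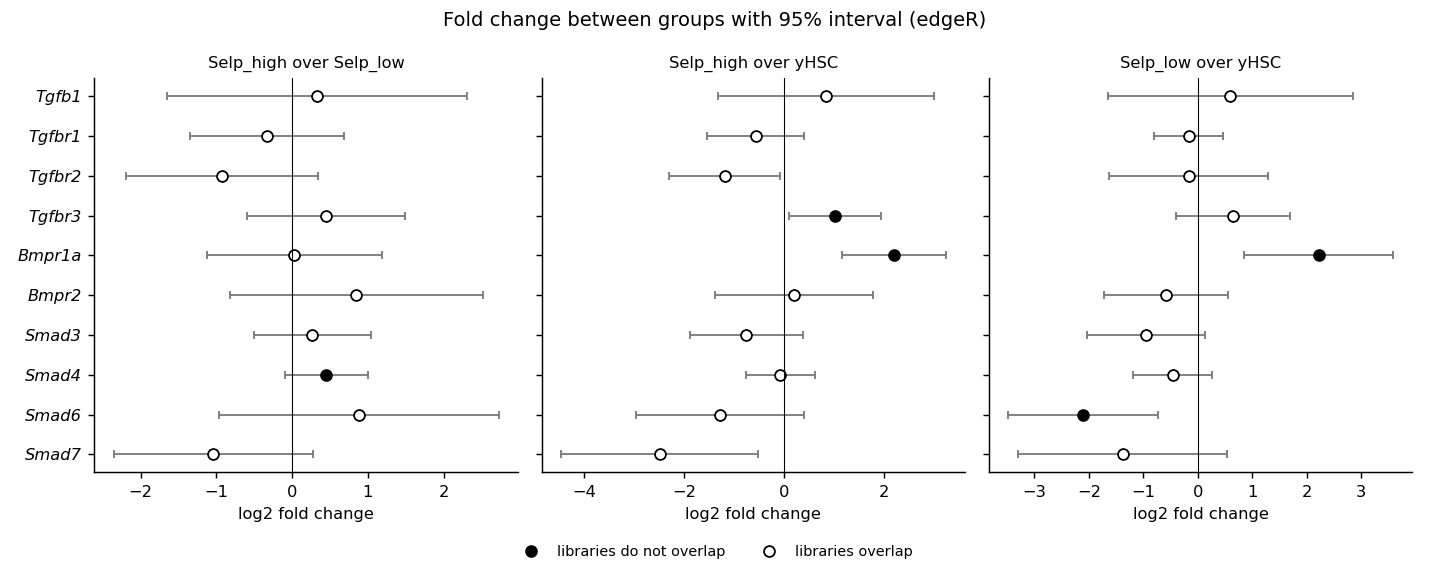
Log2 fold change of the 10 genes (x axis) in each comparison, with the 95% interval of the edgeR fit. Filled points are genes whose libraries do not overlap between the 2 groups. The interval of *Bmpr1a* lies above 0 for both paHSC fractions over yHSCs and that of *Smad6* below 0 for Selp_low paHSCs over yHSCs, while all 10 intervals between the paHSC fractions cross 0.

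*Smad3*, which carries the TGF-beta signal (chromosome 9, 63554049 to 63665276, minus strand), was at 16.7, 52.1 and 60.0 CPM in yHSCs, 17.2 to 24.4 CPM in Selp_low and 18.0 to 33.6 CPM in Selp_high paHSCs. Replicates 2 and 3 of yHSCs stood above all paHSC libraries and yHSC replicate 1 below them, and neither fraction passed the test (log2 -0.95, interval -2.02 to 0.126, for Selp_low paHSCs; log2 -0.75, interval -1.89 to 0.381, for Selp_high paHSCs). *Smad4* (chromosome 18, 73772080 to 73836851, minus strand), the shared partner, was at 71.0, 103.5 and 153 CPM in yHSCs, 79.5, 83.2 and 65.1 CPM in Selp_low and 121, 93.2 and 99.3 CPM in Selp_high paHSCs. It was the 1 gene of the 10 whose libraries did not overlap between the paHSC fractions, with Selp_high 1.37-fold higher (log2 0.45 ± 0.232 SE, interval -0.0954 to 1.00, unadjusted p = 0.0918, edgeR).

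Both inhibitory Smads had lower mean levels in each paHSC fraction than in yHSCs. *Smad6*, which acts mainly on BMP receptors (chromosome 9, 63860358 to 63929341, minus strand), was at 3.63, 8.94 and 9.18 CPM in yHSCs, 2.30, 0.857 and 1.69 CPM in Selp_low and 4.23, 4.02 and 0.744 CPM in Selp_high paHSCs. All Selp_low libraries lay below all yHSC libraries, while Selp_high replicates 1 and 2 lay above the lowest yHSC library. Selp_low paHSCs stood at 0.233-fold the yHSC level (log2 -2.10 ± 0.580 SE, interval -3.48 to -0.722), on 13 to 70 counts per Selp_low library. The lowest of these, replicate 2, was the library with 456661 CPM of B and plasma cell markers. HSC markers summed to 819 to 1505 CPM in Selp_low paHSCs and 1036 to 2293 CPM in yHSCs. The part of other cells in the levels of *Smad6* and *Smad7* was not tested.

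The *Smad6* difference had an unadjusted p of 0.00883 and an adjusted p of 0.332 in edgeR, and DESeq2 called it at an adjusted p of 0.0283. That call was lost without yHSC replicate 2, yHSC replicate 3 or Selp_low replicate 2. In Selp_high paHSCs the log2 difference from yHSCs was -1.28, with an interval of -2.96 to 0.404, and the 2 fractions differed from each other by 0.88 (interval -0.965 to 2.72). Whether the fractions differ in *Smad6* could not be shown at this spread.

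*Smad7*, which acts on both receptor branches (chromosome 18, 75500600 to 75529006, plus strand), was at 4.44, 47.1 and 46.5 CPM in yHSCs, 6.39, 12.3 and 17.4 CPM in Selp_low and 2.71, 7.79 and 7.10 CPM in Selp_high paHSCs. Replicates 2 and 3 of yHSCs stood above every paHSC library, and yHSC replicate 1 lay among the Selp_high values. Selp_high paHSCs stood at 0.178-fold the yHSC level (log2 -2.49 ± 0.843 SE, interval -4.46 to -0.515), with an unadjusted p of 0.0201 and an adjusted p of 0.478 in edgeR and an adjusted p of 0.0412 in DESeq2. The DESeq2 call was lost when any 1 of 5 libraries was left out and kept without yHSC replicate 1. Within each replicate number *Smad7* was lower in the Selp_high than in the Selp_low library, at 0.424-fold, 0.635-fold and 0.407-fold. The log2 difference between the fractions was -1.04 (adjusted p = 0.495, edgeR). With the replicate block it was -1.07 with an adjusted p of 0.180 in edgeR, and DESeq2 with that block called it at an adjusted p of 0.0463.

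Counted together, 0 of the 10 genes were called between the paHSC fractions, where edgeR called 0% of 20370 genes and DESeq2 called 2.46% of 24680 genes and 0 of the 10. None had an unadjusted p under 0.05 there, against 12.5% of all genes tested, and 1 of the 10 did not overlap, against 20.9%. Between Selp_high paHSCs and yHSCs edgeR called 0 of the 10 and 0.165% of 20017 genes, and DESeq2 called 2, *Bmpr1a* and *Smad7*, and 3.26% of 18646 genes. The unadjusted p was under 0.05 for 4 of the 10 (*Bmpr1a*, *Tgfbr3*, *Tgfbr2* and *Smad7*), against 7.59% of all genes. The 2 genes without overlap, *Bmpr1a* and *Tgfbr3*, were both higher, beside 8.53% of all genes without overlap and higher and 13.8% without overlap in either direction.

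For Selp_low paHSCs over yHSCs, edgeR again called 0 of the 10 and 0% of 20437 genes, and DESeq2 called 2, *Bmpr1a* and *Smad6*, and 2.63% of 19634 genes. These 2 genes were also the ones with an unadjusted p under 0.05 (11.3% of all genes) and the ones without overlap (16.3% of all genes). The median log2 difference of the 10 genes was 0.29 between the fractions, -0.32 for Selp_high and -0.31 for Selp_low paHSCs over yHSCs, beside -0.11, -0.03 and 0.08 for all genes tested. In 1 fit of all 9 libraries edgeR called 0 of the 10 genes and 0.0133% of all genes as different among the 3 groups. *Bmpr1a* came closest there (unadjusted p = 0.00374, adjusted p = 0.186), and it was the 1 gene of the 10 that DESeq2 called (adjusted p = 0.00940), beside 6.44% of all genes. For a single gene, an exact permutation test of 3 against 3 libraries cannot go below p = 0.1.

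The rest of the pathway was described through 101 other genes in 6 lists. Like the 10 genes, these lists were chosen with earlier results of these data known, so that their counts describe the listed genes and are no independent evidence. Of these, 84, 84 and 82 were tested for Selp_high over Selp_low paHSCs, Selp_high paHSCs over yHSCs and Selp_low paHSCs over yHSCs, and edgeR called 0 in each. DESeq2 called 3 higher and 1 lower, 6 higher and 5 lower, and 1 higher and 1 lower, beside 2.46%, 3.26% and 2.63% of all genes in either direction. At an unadjusted p under 0.05 (edgeR), 16 were higher and 4 lower in Selp_high than in Selp_low paHSCs, 23.8% of those tested, while 6.88% of all genes were higher and 5.67% lower at that p. Against yHSCs the counts leaned less to one side, with 9 higher and 7 lower in Selp_high paHSCs (19% of those tested, 7.59% of all genes) and 5 higher and 9 lower in Selp_low paHSCs (17.1% of those tested, 11.3% of all genes).

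The extracellular regulators and activators, which store, release or trap the ligands, gave 6 of those 16. *Ltbp3*, a latent TGF-beta binding protein, was at 62.7, 67.0 and 51.8 CPM in Selp_high, 19.4, 8.90 and 16.8 CPM in Selp_low paHSCs and 15.5, 94.97 and 90.5 CPM in yHSCs. The paHSC fractions did not overlap and the log2 difference was 2.00 ± 0.350 SE (adjusted p = 0.338, edgeR; DESeq2 adjusted p = 0.00626), while Selp_high paHSCs lay within the range of yHSCs. *Mmp14*, a membrane metalloproteinase that can release latent TGF-beta, had another order, with 33.1 to 64.4 CPM in Selp_high, 18.3 to 25.5 in Selp_low paHSCs and 9.47 to 15.9 in yHSCs and no overlap between any groups. For Selp_high paHSCs over yHSCs its log2 difference was 1.82 ± 0.384 SE (adjusted p = 0.178, edgeR; DESeq2 adjusted p = 0.00270). *Ltbp4*, another latent TGF-beta binding protein, was at 4.04 to 22.3 CPM in Selp_high and 1.05 to 3.77 CPM in Selp_low paHSCs (log2 2.33, adjusted p = 0.338, edgeR).

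The log2 difference of *Ltbp1* from yHSCs rested on 1 Selp_high library. It was at 6.61, 167 and 10.3 CPM in Selp_high paHSCs and 0.648 to 4.47 CPM in yHSCs, with a log2 difference of 4.75 and of 1.85 without Selp_high replicate 2 (adjusted p = 0.403 and 0.675, edgeR). *Rgmb*, a BMP co-receptor, was at 7.74 to 8.79 CPM in Selp_high paHSCs and 2.202 to 3.91 CPM in yHSCs (log2 1.47, adjusted p = 0.303, edgeR; DESeq2 adjusted p = 0.00517). *Fstl1*, a secreted glycoprotein of the follistatin family, was at 3.62 to 17.1 CPM in Selp_low paHSCs and 24.1 to 34.1 CPM in yHSCs (log2 -1.55, adjusted p = 0.364, edgeR). *Ltbp3* was lower in Selp_low paHSCs than in yHSCs by mean (log2 -2.09, adjusted p = 0.344, edgeR), with overlap at yHSC replicate 1.

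Among the other receptors, *Eng* (endoglin, a co-receptor) was at 90.6, 151 and 165 CPM in Selp_high and 24.4, 35.1 and 65.9 CPM in Selp_low paHSCs, and at 16.5, 197 and 165 CPM in yHSCs. The paHSC fractions did not overlap (log2 1.70 ± 0.433 SE, adjusted p = 0.338, edgeR). Endothelial cells express *Eng* as well, and the 10 stromal and endothelial markers summed to 168 to 283 CPM in Selp_high, 71.4 to 154 in Selp_low paHSCs and 194 to 228 CPM in yHSCs, lowest in Selp_low paHSCs as *Eng*, *Ltbp3* and the receptors named next were by mean. Most of that sum came from *Tek*, *Emcn*, *Pecam1* and *Cxcl12*, while the endothelial cadherin gene *Cdh5* was at 0.258 to 1.64 CPM. The 10 HSC markers had that order between the fractions too. They summed to 819 to 1505 CPM in Selp_low and 2172 to 3118 CPM in Selp_high paHSCs, and to 1036 to 2293 CPM in yHSCs. The part of endothelial cells, or of the share of HSCs, in these levels was not tested. The activin and BMP receptors *Acvr1*, *Acvr2a* and *Acvr2b* lay below all yHSC libraries in all 3 Selp_low libraries, with log2 differences of -1.98, -1.21 and -1.57 and adjusted p between 0.332 and 0.357 (edgeR). DESeq2 called 1 of them, *Acvr2b*, at an adjusted p of 0.0485. *Acvr1* was also higher in all Selp_high than in all Selp_low libraries (log2 1.40 ± 0.514 SE, adjusted p = 0.359, edgeR). The list's median in Selp_low paHSCs over yHSCs was -1.21 over 7 genes tested, beside 0.08 for all genes.

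The list headed intracellular inhibitors, a heading that need not hold for each of its genes, split between genes. *Tgfb1i1* (Hic-5), a LIM protein that binds Smads, was at 8.47, 22.1 and 9.90 CPM in Selp_high paHSCs, 1.64, 1.58 and 3.22 CPM in Selp_low paHSCs and 1.12, 0.371 and 0.711 CPM in yHSCs. No groups overlapped, and the log2 difference of Selp_high paHSCs was 4.18 ± 0.647 SE over yHSCs (adjusted p = 0.0901, edgeR; DESeq2 adjusted p = 1.75e-08) and 2.64 ± 0.558 SE over Selp_low paHSCs (adjusted p = 0.338; DESeq2 adjusted p = 0.00311). The co-repressors *Tgif1* and *Skil* were lower in Selp_high paHSCs than in yHSCs, by log2 differences of -1.83 and -2.43 (adjusted p = 0.224 and 0.445, edgeR; DESeq2 adjusted p = 0.00328 and 0.0302). The megakaryocyte and platelet markers summed to 1352 to 7607 CPM in Selp_high, 165 to 2168 in Selp_low paHSCs and 126 to 196 in yHSCs. The part of such cells in the levels of these genes was not tested.

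Known target genes differed in both directions. *Id3*, an inhibitor of differentiation induced by BMP signals, was at 69.0, 69.9 and 24.4 CPM in Selp_low paHSCs, 12.3, 11.6 and 3.52 CPM in Selp_high paHSCs and 5.83, 9.36 and 6.34 CPM in yHSCs. All Selp_low libraries lay above all others, with a log2 difference of 2.99 ± 0.489 SE over yHSCs (adjusted p = 0.332, edgeR; DESeq2 adjusted p = 0.000152) and Selp_high paHSCs 2.59 below Selp_low on the same scale (DESeq2 adjusted p = 0.0106). *Id2*, its relative, was at 75.8 to 165 CPM in Selp_low, 40.1 to 71.6 in Selp_high paHSCs and 20.5 to 57.1 in yHSCs. Lymphocytes also express *Id2* and *Id3*, and the T cell gene *Cd3g* stood out in Selp_low replicates 1 and 2 (83.8 and 226 CPM) but not in replicate 3 (0.824 CPM), the library with the least *Id2* and *Id3* of the 3. The 10 B and plasma cell markers summed to 21451, 456661 and 939 CPM in Selp_low replicates 1, 2 and 3. They summed to 2739, 20884 and 5803 CPM in Selp_high paHSCs and 642 to 1369 CPM in yHSCs. Selp_high replicate 2 thus lay near Selp_low replicate 1 in these markers, with *Id3* at 11.6 against 69.0 CPM. The part of T cells or of B and plasma cells was not tested. *Pdgfb*, a growth factor gene, was at 11.1 to 17.7 CPM in Selp_high paHSCs, above the 3.34 to 6.44 CPM of Selp_low paHSCs and the 1.56 to 5.11 CPM of yHSCs (log2 1.63 and 1.97; DESeq2 adjusted p = 0.0440 and 0.00419), and edgeR called neither. *Gata2*, a transcription factor of HSCs, was at 408 to 449 CPM in Selp_high and 147 to 231 CPM in Selp_low paHSCs, with yHSCs at 108 to 329 CPM (log2 1.15 between the fractions, adjusted p = 0.338, edgeR).

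*Hes1*, better known as a Notch target, was at 11.2 to 49.3 CPM in Selp_high paHSCs and 67.1 to 284 CPM in yHSCs (log2 -2.54, adjusted p = 0.333, edgeR; DESeq2 adjusted p = 0.00548). *Cdkn1c*, the cell cycle inhibitor p57, was at 23.6 to 80.4 CPM in Selp_high paHSCs and 10.8 to 16.3 CPM in yHSCs (log2 1.74, adjusted p = 0.383, edgeR; DESeq2 adjusted p = 0.0434). *Klf10*, a TGF-beta induced transcription factor, was at 74.6 to 168 CPM in Selp_low paHSCs and 193 to 261 CPM in yHSCs (log2 -0.81, adjusted p = 0.417, edgeR). None of these pairs of groups overlapped.

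Of the other ligands, *Gdf15*, a stress-induced member of the family, was at 19.9, 80.9 and 61.5 CPM in yHSCs and 12.5, 2.71 and 5.95 CPM in Selp_high paHSCs, with no overlap (log2 -2.96 ± 0.708 SE, adjusted p = 0.245, edgeR; DESeq2 adjusted p = 0.000568). *Bmp4* was at 31.7, 7.20 and 5.52 CPM in Selp_high paHSCs, 6.43, 1.12 and 2.25 CPM in Selp_low paHSCs and 3.12, 0.509 and 1.203 CPM in yHSCs, where replicate 1 was the high library of each group, the reverse of *Tgfb1*. For Selp_high paHSCs over yHSCs its log2 difference was 3.17 without overlap (adjusted p = 0.386 in edgeR and 0.0140 in DESeq2). Over Selp_low paHSCs it was 2.16 with overlap (adjusted p = 0.397, edgeR). *Bmp1*, a protease that processes matrix and latent TGF-beta complexes, was at 14.5 to 28.3 CPM in Selp_high and 7.64 to 10.1 CPM in Selp_low paHSCs and 10.1 to 38.3 CPM in yHSCs (log2 1.36 between the fractions, adjusted p = 0.338, edgeR). *Gdf3* was at 39.1 to 42.9 CPM in Selp_high paHSCs, 27.2 to 47.5 CPM in Selp_low paHSCs and 16.5 to 25.3 CPM in yHSCs, and *Bmp7*, at 1.12 to 8.79 CPM in Selp_low paHSCs and 0.441 to 1.72 CPM in yHSCs, overlapped between the groups.

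The list of other Smads and signal carriers had medians of 0.02, -0.09 and -0.09 in the 3 comparisons and 0 DESeq2 calls. Single members lay apart. *Smad1*, which carries the BMP signal, was at 31.3 to 65.2 CPM in Selp_low paHSCs and 66.2 to 92.6 CPM in yHSCs (log2 -0.78, unadjusted p = 0.0498, adjusted p = 0.442, edgeR). *Ppp2r1a*, a phosphatase subunit, was at 317 to 458 CPM in Selp_high and 213 to 284 CPM in Selp_low paHSCs (log2 0.64, unadjusted p = 0.0465, adjusted p = 0.392, edgeR).

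**Figure D4:**
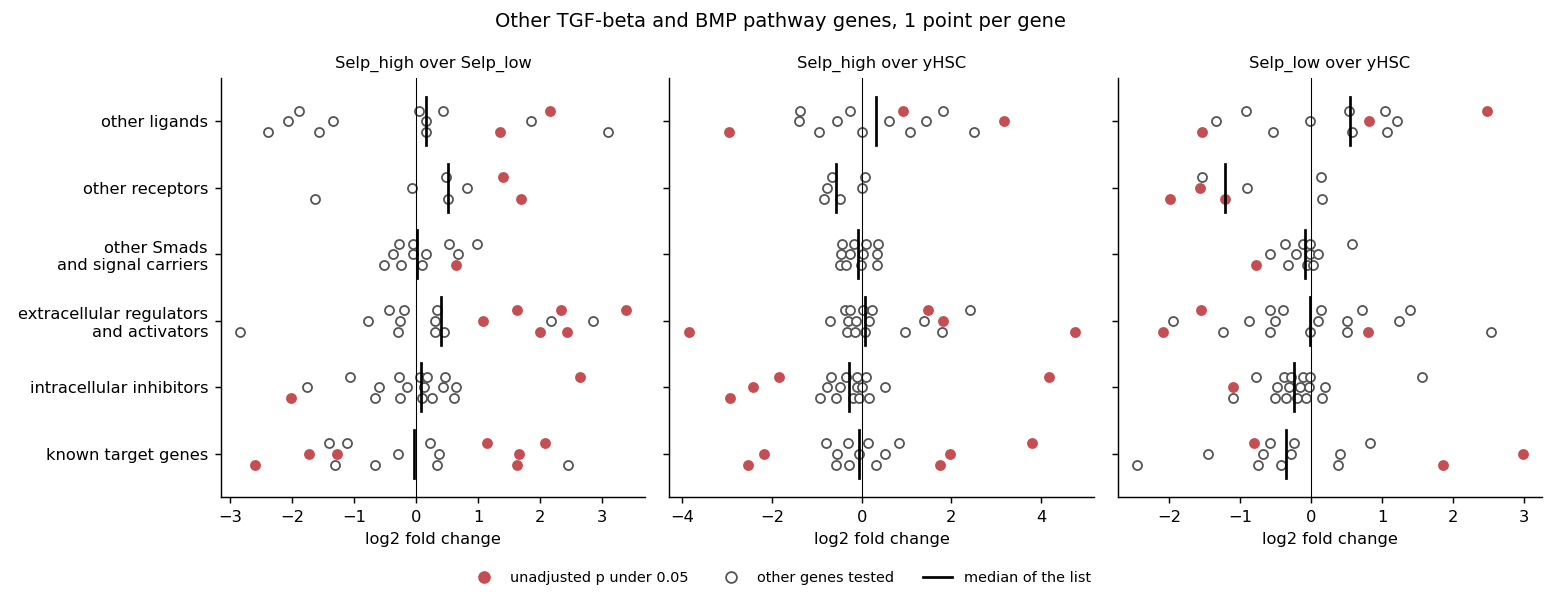
Log2 fold change (x axis, edgeR) of the other pathway genes tested, 1 point per gene, by list (y axis) and comparison. Filled red points have an unadjusted p under 0.05 and black lines are list medians. Between the paHSC fractions 16 such points lie to the right of 0 and 4 to the left, and the other receptors of Selp_low paHSCs over yHSCs have the median of -1.21.

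By profile over the 9 libraries (root mean square of the difference in centred log2 CPM, 15768 protein-coding genes), the genes most like *Tgfb1* were *Rtn4r* (0.406), *Prrc2a* (0.443), *Zfpm1* (0.479), *Hyou1* (0.482) and *Rbm38* (0.496), against a median of 1.59 over all genes. Those most like *Bmpr1a* were *Fcor* (0.393), *S100a1* (0.451), *Clec11a* (0.455), *A930009A15Rik* (0.533) and *Cd9* (0.564), against a median of 1.34.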

How the data were processed

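Total RNA of 9 libraries was converted to cDNA with a kit for ultra-low input. Reads were trimmed with fastp, aligned with HISAT2 2.2.1 and assigned to genes with featureCounts 2.0.6, on build mm39 per the submitters' processing notes. The authors deposited raw read counts per gene, without normalization, beside gene lengths. Annotation release, strand setting and the handling of multi-mapping reads were not given in the sources used here, and 0 columns of per-sample values were left unused.

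Counts were analysed in R 4.3.3 with edgeR 4.0.16 (TMM factors, filterByExpr, legacy quasi-likelihood test), limma 3.58.1 and DESeq2 1.42.0, and drawn in Python 3.11.15 with matplotlib 3.10.9. Each pair of groups was fitted over all genes and p-values were Benjamini-Hochberg adjusted over all genes tested. A call needed an adjusted p no higher than 0.05 together with a log2 difference of at least 1 in either direction. CPM and RPKM were computed from the counts and lengths. Counting floors of 3 counts cover counting error only. The scripts were tested on simulated data.

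The 10 genes and the lists were chosen with earlier results of these data known. All 10 are named, with up to 3 genes of smallest p per list and comparison among those at unadjusted p under 0.05, and the genes most alike to *Tgfb1* and *Bmpr1a*. Residuals of equal replicate numbers correlated at 0.178, 0.276 and 0.303 between the paHSC fractions, all over 0.1, and at -0.417 to 0.0917 with yHSCs. Replicates were not duplicates: their counts differed far beyond counting noise. Alternatives covered scaling, filters, tools, dispersion, the replicate block and each library left out. DESeq2 with the block, with libraries left out and after edgeR's filter were added after the data were seen.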

Additional observations from a re-analysis of the deposited data

How the results depend on the processing

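With 3 libraries per group, 1 library often decided a value, and genes of few counts such as *Smad6*, *Bmpr2* and *Bmpr1a* carry most of the counting error. The medians of the 10 genes moved by less than the spread between libraries under all 26 alternatives of each comparison. That spread, a pooled SD of 0.813 on the log2 scale, is larger than the medians themselves (0.29, -0.32 and -0.31). Even a change of sign could thus pass as no move. The medians ranged widely, from -0.03 to 0.86 between the fractions, -0.85 to -0.22 for Selp_high and -0.93 to -0.10 for Selp_low paHSCs over yHSCs. The calls did not hold across tools, and the cause in these data was not tested. Counts were also simulated with the spread that edgeR estimated from these libraries and 200 genes changed by 3 on the log2 scale. That change exceeds the largest difference among the 10 genes (*Smad7*, log2 -2.49). Of these genes edgeR recovered 21% to 48% over the 3 comparisons and DESeq2 59.5% to 66.5%. Unchanged genes called numbered 2 to 5 in edgeR and 106 to 121 in DESeq2. With a low spread, edgeR recovered 94% to 98% and DESeq2 93% to 98.5%. Unchanged genes called then numbered 8 to 9 in edgeR and 4 to 6 in DESeq2. These shares depend on the simulated spread and change, so they do not tell which calls among the 10 genes are right.

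Between Selp_high and Selp_low paHSCs, the number called was 1 with DESeq2 and the replicate block (*Smad7*). The number at unadjusted p under 0.05 was 1 without scaling factors, 1 with the replicate block in edgeR and 1 with it in DESeq2. Between Selp_high paHSCs and yHSCs the number called was 1 without a filter (*Smad7*, adjusted p = 0.0113 in edgeR) and 1 with limma voom (*Bmpr1a*), 2 with DESeq2 and 2 with it after edgeR's filter, and 4 with DESeq2 and the block (*Tgfb1*, *Tgfbr2*, *Bmpr1a* and *Smad7*). For Selp_low paHSCs over yHSCs it was 2 with DESeq2 and 2 with it after edgeR's filter, and 1 with DESeq2 and the block. There the number at unadjusted p under 0.05 was 5 without scaling factors, 5 without the 10 highest genes of each library, 4 without a filter and 5 with voom. Among all 3 groups 1 gene was called by DESeq2 and 1 by voom. The block changed no other call in edgeR.

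With each library left out, edgeR called 0 in all comparisons. DESeq2 called 0 between the fractions, 1 to 3 for Selp_high and 0 to 4 for Selp_low paHSCs over yHSCs, with 4 without yHSC replicate 1. The number at unadjusted p under 0.05 ranged from 0 to 1, 1 to 4 and 2 to 5 in edgeR, with 5 without yHSC replicate 1, and from 0 to 1, 3 to 5 and 2 to 4 in DESeq2.

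Small differences turned sign. Between the fractions, *Bmpr1a* was at -0.00269 (log2) with upper-quartile factors, -0.08 without Selp_low replicate 1 (DESeq2 -0.10), -0.24 without Selp_low replicate 2 (DESeq2 -0.29) and -0.11 without Selp_high replicate 2 (DESeq2 -0.0881), with a range of -0.24 to 0.63 over the libraries left out. *Tgfb1* was at -0.17 without Selp_low replicate 1 (DESeq2 -0.18) and -0.0419 without Selp_high replicate 2 (DESeq2 -0.0644), in a range of -0.17 to 0.79. *Tgfbr1* was at 0.23 without scaling factors, *Smad6* at -0.25 with voom, and *Bmpr2* at -0.13 with voom and -0.0111 without Selp_high replicate 2, in a range up to 1.28. For Selp_high paHSCs over yHSCs, *Bmpr2* was at -0.51 with voom, -0.12 with the replicate block (DESeq2 -0.13) and -0.68 without Selp_high replicate 2 (DESeq2 -0.69), in a range of -0.68 to 0.64, and *Smad4* at 0.19 without yHSC replicate 3 (DESeq2 0.14). For Selp_low paHSCs over yHSCs, *Tgfb1* was at -0.19 without scaling factors and -0.54 with voom, *Tgfbr3* at -0.0450 without scaling factors, and *Tgfbr2* at 0.10 without yHSC replicate 3 and 0.14 without Selp_low replicate 3 (DESeq2 0.19), in a range of -0.65 to 0.14.

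*Bmpr1a* kept its direction over yHSCs under all 26 alternatives, with log2 differences of 1.96 to 2.63 (adjusted p 8.31e-07 to 0.844) for Selp_high and 1.59 to 2.62 (adjusted p 0.00290 to 0.981) for Selp_low paHSCs. *Smad6* in Selp_low paHSCs ranged from -2.55 to -1.84 (adjusted p 0.00201 to 0.981) and *Smad7* in Selp_high paHSCs from -3.00 to -2.06 (adjusted p 2.71e-06 to 1.000).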

Other observations

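The 4 genes beside *Tgfb1* that were as low in replicate 1 of all 3 groups were *Rn18s-rs5*, *Epn1*, *Gucy1b1* and *Ass1*, named after their values were seen. Their log2 differences from replicates 2 and 3 were -3.90, -3.46 and -3.41 for *Rn18s-rs5*, -3.74, -2.63 and -3.95 for *Epn1*, -3.70, -3.30 and -2.89 for *Gucy1b1* and -3.15, -2.69 and -2.74 for *Ass1* in yHSCs, Selp_low and Selp_high paHSCs. *Tgfb1* transcripts are 52.5% GC, in the fourth of 5 classes of genes by GC. The median gene of that class differed in replicate 1 by -0.288, -0.065 and 0.014 in the same groups. *Smad6* (60.8% GC) and *Smad7* (56.9% GC) are in the fifth class, whose median gene differed by -0.686, -0.135 and 0.085. From the first class to the fifth the median went from 0.164 to -0.686 in yHSCs, from 0.131 to -0.135 in Selp_low and from -0.22 to 0.085 in Selp_high paHSCs, so that replicate 1 of yHSCs held less of GC-rich transcripts than the other yHSC libraries. The part of this in the levels of *Smad6*, *Smad7* and *Tgfb1* was not tested. A GC value was held by 98.2% of the genes.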
